A study of Mus musculus with 54 samples.

Results

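Neuromuscular junction and denervation genes, 10 in all, were followed through the quadriceps of ageing C57BL/6J mice: the acetylcholine receptor subunit genes Chrna1, Chrnb1, Chrnd, Chrne and Chrng, the receptor kinase gene Musk, the myogenic transcription factor gene Myog, the adhesion molecule gene Ncam1, the stress-response gene Gadd45a and the transcription factor gene Runx1. They were chosen with earlier results of these data known and picked out by gene symbol. All 10 were found among the 55471 rows of the quadriceps count table. RNA from whole quadriceps was sequenced in 18 mice of the inbred strain C57BL/6J, 3 of each sex in each of 3 conditions. Mice called young here had reached 50 weeks of age and those called old 130 weeks, and the third condition was mice of 130 weeks whose food contained corylin, a plant flavonoid. The design text describes a control diet as the counterpart of the corylin diet, and no transgene or deletion is named for any group. Liver and kidney of the same series, 17 and 18 libraries, were used as tissues without neuromuscular junctions. By the library names, their young and old libraries come from the same mice as those of quadriceps.

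At the neuromuscular junction, agrin released by the motor nerve acts through the co-receptor LRP4 on the kinase MuSK, and acetylcholine receptors gather opposite the nerve ending. The adult receptor is built of α, β, δ and ε subunits, while the fetal receptor carries γ in place of ε. When a muscle fibre loses its nerve, electrical activity ceases and myogenin rises. MuSK, NCAM, GADD45A, RUNX1 and some of the receptor subunits, γ among them, are then made along the whole fibre. Loss and remodelling of junctions is a known feature of old rodent muscle.

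The receptor subunit genes lie on chromosomes 1, 2 and 11 of the mouse genome (GRCm38). Chrng (chr1:87204657-87212694) begins 4586 bases after the end of Chrnd (chr1:87190607-87200070), both on the plus strand. Chrna1 (chr2:73563215-73580338), Chrnb1 (chr11:69784036-69795943) and Chrne (chr11:70614883-70619216) are on the minus strand. Promoter sequences, from 250 bases before to 50 bases after the RefSeq start (GRCm38.p6), matched 8 of the 10 genes, and those of 4 receptor subunits are shown because Chrng and Chrnb1 rose with age while Chrne and Chrna1 did not pass the test. Capitals mark CAGCTG, an E-box core to which myogenin and its relatives can bind, and CCGGAA, the core of the N-box through which ETS factors act at synaptic nuclei, each searched on both strands and sharing no base with one another.
Chrng promoter, chr1:87205561-87205860, plus strand: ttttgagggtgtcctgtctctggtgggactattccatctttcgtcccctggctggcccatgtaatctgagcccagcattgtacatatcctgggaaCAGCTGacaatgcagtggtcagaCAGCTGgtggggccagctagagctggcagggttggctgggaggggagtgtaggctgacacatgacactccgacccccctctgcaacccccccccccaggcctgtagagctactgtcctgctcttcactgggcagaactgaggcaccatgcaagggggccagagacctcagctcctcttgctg
Chrne promoter, chr11:70619145-70619444, minus strand: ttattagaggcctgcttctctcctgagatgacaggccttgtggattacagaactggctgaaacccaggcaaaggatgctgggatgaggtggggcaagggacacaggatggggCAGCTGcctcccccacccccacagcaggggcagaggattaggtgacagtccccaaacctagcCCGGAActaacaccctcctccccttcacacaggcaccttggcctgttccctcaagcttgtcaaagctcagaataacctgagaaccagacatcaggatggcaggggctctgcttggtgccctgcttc
Chrna1 promoter, chr2:73580289-73580588, minus strand: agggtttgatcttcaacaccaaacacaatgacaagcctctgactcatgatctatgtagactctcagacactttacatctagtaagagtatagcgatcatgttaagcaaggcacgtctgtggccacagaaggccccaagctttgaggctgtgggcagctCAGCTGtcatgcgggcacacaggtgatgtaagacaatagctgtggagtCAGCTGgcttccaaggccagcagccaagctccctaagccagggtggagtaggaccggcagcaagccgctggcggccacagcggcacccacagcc
Chrnb1 promoter, chr11:69795888-69796187, minus strand: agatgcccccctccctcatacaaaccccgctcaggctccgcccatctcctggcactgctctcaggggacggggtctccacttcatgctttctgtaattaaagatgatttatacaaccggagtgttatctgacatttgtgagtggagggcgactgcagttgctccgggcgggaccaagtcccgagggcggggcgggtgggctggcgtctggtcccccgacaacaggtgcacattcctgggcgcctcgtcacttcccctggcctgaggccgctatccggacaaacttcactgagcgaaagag
CAGCTG occurred at 2 places in the Chrng promoter, beginning 155 and 132 bases before the start. The Chrna1 promoter also held 2, at 92 and 44 bases before the start. The Chrne promoter held 1 CAGCTG, 138 bases before the start, and 1 CCGGAA, 76 bases before it. Neither string was in the Chrnb1 window. The wider E-box form CANNTG, where N is any base, had 3 matches there, and 72.3% of mouse promoters of this length held at least 1. Among 32851 mouse promoters of the same length, 16.3% held CAGCTG at least once and 1.9% at least 2 times, and 14.9% held CCGGAA. Of the other genes, Musk had 1 CAGCTG 68 bases before its start, Gadd45a had 1 CCGGAA 23 bases before its start, and the second of the RefSeq starts of Runx1 had 1 CCGGAA 106 bases before it. These are matches of letters in the reference genome, and binding was not measured.

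The quadriceps libraries held 13.25 to 19.7 Mreads (Mreads, 1e+06 counted reads; median 16.34 Mreads). All 10 genes passed the filter on low counts, along with 14173 genes in all. The muscle identity of the samples was clear: the CPM (counts scaled to 1e+06 per library) of 10 myofibre genes together ran from 90500 to 182000, against at most 27 in kidney and 10.9 in liver, while 5 neuron genes together stayed at or under 0.27 CPM in quadriceps. Old female 3 stood apart. Its 13 leukocyte and macrophage markers summed to 1130 CPM, against 31 to 121 CPM in the other 17 libraries, and its myofibre sum was the lowest. Library names carry the letter R in place of B in 4 of the 18 libraries, replicate 3 of each old and corylin group and no young library, and the labels do not say what the letters mean. Values of the genes that passed are therefore also given without old female 3.

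**Figure D1:**
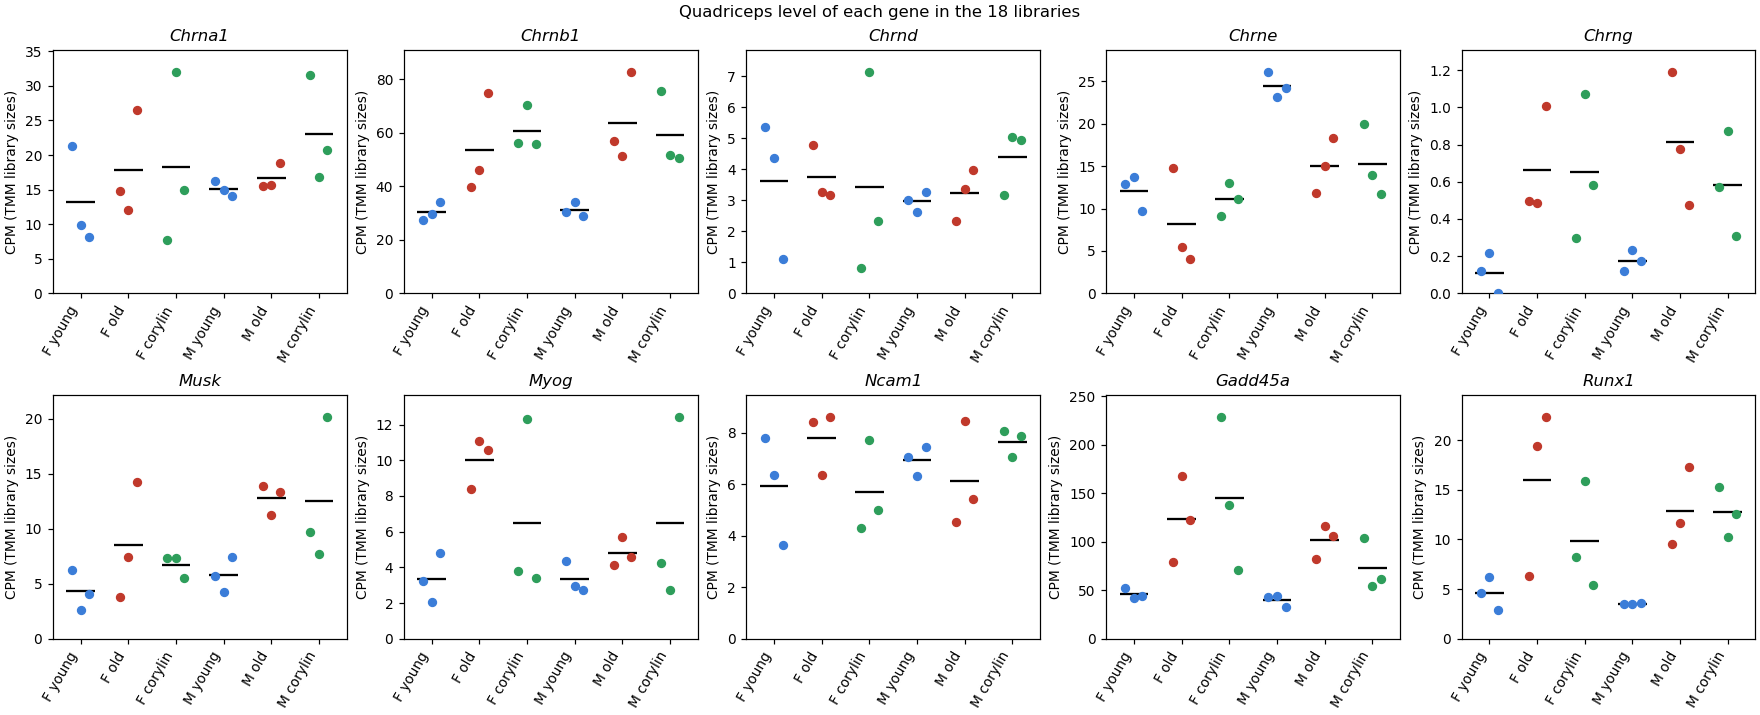
CPM of each of the 10 genes in the 18 quadriceps libraries (linear axes from 0). Points are libraries, replicates 1 to 3 from left to right, F and M are females and males, and horizontal lines are group means. Runx1, Gadd45a, Chrnb1 and Chrng lie higher in every old library than in every young library of the same sex, and the corylin libraries spread over the old range for most genes.

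The question put to these genes was whether old muscle carried more or less of their RNA than young muscle, and whether corylin moved them in old muscle. Taken over the mean of both sexes, 4 of the 10 genes rose with age at an adjusted p under 0.05: Runx1, Chrnb1, Gadd45a and Chrng. None fell. Among all 14173 genes tested, 1.98% rose and 1.62% fell. The median log2 fold change of the 10 genes was 0.98, against 0.00 over all genes tested. Because the 10 were chosen with earlier results of these data known, values over all genes serve as description and not as a test. None of the 10 passed in any comparison of corylin with old muscle, where no gene at all passed in edgeR's quasi-likelihood test.

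On the length-corrected TPM scale of the deposited table, Gadd45a was the most abundant of the 10 in young quadriceps, at 61.6 ± 10.7 TPM (SD, n = 6, sexes together), beyond the spread of the next. Chrnb1 followed at 30.8 ± 3.56 TPM and Chrne at 26.9 ± 8.94 TPM, a pair whose spreads overlap with the sexes together. Within each sex (SD, n = 3) their spreads were apart, in opposite order. Young males held 29.4 ± 2.88 TPM of Chrnb1 and 34.6 ± 1.39 TPM of Chrne, and young females 32.1 ± 4.28 and 19.2 ± 4.49 TPM. Chrna1 stood at 8.05 ± 2.49 TPM and Myog at 5.64 ± 1.61 TPM, which overlap as well. Musk, Chrnd and Ncam1 followed at 3.31 ± 1.01, 2.56 ± 1.24 and 1.88 ± 0.43 TPM, each within the spread of its neighbour. Runx1 stood below them at 0.871 ± 0.338 TPM. The γ subunit was the least abundant, at 0.0877 ± 0.0549 TPM. In mature junctions the receptor holds ε, and the young libraries showed that order of the ε and γ transcripts.

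The γ subunit gene Chrng gave few reads in young muscle. Young females held 2, 4 and 0 reads and young males 2, 4 and 3 reads. Old females held 9, 7 and 19 reads and old males 19, 11 and 7 reads. Every old library exceeded every young one, with 15 reads in the 6 young libraries together and 72 in the 6 old libraries together. The log2 fold change over the mean of both sexes was 2.33 ± 0.49 (SE; 95% interval 1.28 to 3.38; adjusted p = 0.0283, edgeR). Within females it was 2.48 ± 0.72 (adjusted p = 0.0508, edgeR), and within males 2.18 ± 0.67 (adjusted p = 0.132, edgeR), neither past the threshold. Without old female 3 the value over both sexes was 2.12 ± 0.52 (adjusted p = 0.0497, edgeR). The size of this change rests on a few reads per library.

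The ε subunit gene Chrne went the other way on the fitted scale without passing the test. Young males stood at 26.1, 23.1 and 24.2 CPM and old males at 11.8, 15.0 and 18.3 CPM, so the old males were all lower. Young females stood at 12.9, 13.7 and 9.71 CPM and old females at 14.8, 5.51 and 4.08 CPM, where old female 1 lay above all young females. The log2 fold change was -0.70 ± 0.35 in males (adjusted p = 0.298, edgeR), -0.57 ± 0.36 in females (adjusted p = 0.328, edgeR) and -0.64 ± 0.25 over both (95% interval -1.17 to -0.11; adjusted p = 0.131, edgeR). Chrne overlaps a gene on the opposite strand, 4930544D05Rik, which had 0 reads in 17 of the 18 quadriceps libraries and 1 read in the other. The young females, at 9.71 to 13.7 CPM, did not overlap with the young males, at 23.1 to 26.1 CPM, and the log2 difference of -1.02 ± 0.35 did not pass (adjusted p = 0.152, edgeR). In that sex comparison 1.2% of all genes and none of the 10 passed, while 1 of the 10, Chrne, had an unadjusted p under 0.05 (0.0107), as did 17.7% of all genes.

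Set against each other on the TPM scale, the γ and ε transcripts showed how their shares shifted. Chrng made up 0.374%, 0.638% and 0% of their summed TPM in young females and 0.183%, 0.408% and 0.287% in young males. It made up 1.34%, 3.47% and 9.11% in old females and 3.94%, 2.05% and 1.04% in old males. All 6 old libraries lay above all 6 young ones, and ε remained the larger in each library. In the corylin groups the share was 1.32%, 3.26% and 2.1% in females and 1.15%, 2.49% and 1.06% in males, above every young library and inside the range of the old ones. The share is a description, with no test.

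**Figure D2:**
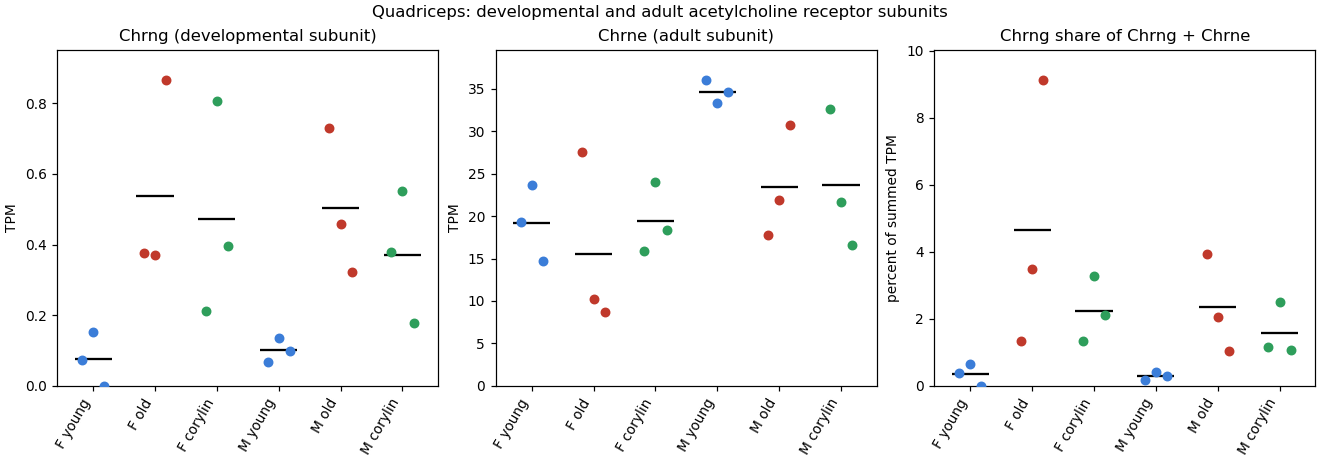
TPM of Chrng (left) and Chrne (middle) and the percentage that Chrng makes of their summed TPM (right) in the 18 quadriceps libraries, as deposited (linear axes from 0). Points are libraries and lines are group means; the share lies between 0% and 0.638% in young and between 1.04% and 9.11% in old libraries.

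The β subunit gene Chrnb1, needed in both the fetal and the adult receptor, had the smallest standard error of the 4 genes that rose. Young females stood at 27.2, 29.7 and 34.2 CPM and old females at 39.6, 46.1 and 74.9 CPM. In males the young stood at 30.4, 34.1 and 28.9 CPM and the old at 56.9, 51.3 and 82.6 CPM. All old libraries lay above all young libraries, and replicate 3 was the highest of its old group in each sex. Over both sexes the log2 fold change was 0.92 ± 0.17 (95% interval 0.57 to 1.27; adjusted p = 0.0162, edgeR). It was 0.82 ± 0.23 in females (adjusted p = 0.0476, edgeR) and 1.03 ± 0.23 in males (adjusted p = 0.0808, edgeR). Without old female 3 it was 0.51 in females (adjusted p = 0.258, edgeR) and 0.77 ± 0.14 over both sexes (adjusted p = 0.0212, edgeR).

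The other subunits of both receptor forms did not pass. Chrna1, which codes for the ligand-binding α subunit, stood at 21.3, 9.93 and 8.18 CPM in young females and at 14.8, 12.1 and 26.5 CPM in old females. In males it stood at 16.2, 15.0 and 14 CPM in young and at 15.5, 15.7 and 18.9 CPM in old mice. The groups overlapped in both sexes, and the log2 fold change over both was 0.29 ± 0.32 (95% interval -0.38 to 0.97; adjusted p = 0.585, edgeR). Chrnd, which codes for the δ subunit, ranged from 1.12 to 5.36 CPM in young females, more widely than any difference between ages, and its log2 fold change over both sexes was 0.09 ± 0.42 (95% interval -0.81 to 0.98; adjusted p = 0.918, edgeR). The intervals of Chrna1 and Chrnd leave room for a change in either direction. Among the 5 subunit genes, β and γ rose and α, δ and ε did not pass.

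Musk codes for the kinase that receives the agrin signal. It stood at 5.66, 4.21 and 7.39 CPM in young males and at 13.9, 11.2 and 13.3 CPM in old males. Young females stood at 6.26, 2.59 and 4.06 CPM and old females at 3.80, 7.46 and 14.2 CPM. The males did not overlap, while old female 1 lay within the young female range. Its log2 fold change was 1.15 ± 0.44 in males (adjusted p = 0.191, edgeR), 0.98 ± 0.44 in females (adjusted p = 0.174, edgeR) and 1.07 ± 0.31 over both (95% interval 0.41 to 1.73; adjusted p = 0.0628, edgeR). With old female 3 left out it was 0.39 ± 0.42 in females (adjusted p = 0.69, edgeR) and 0.78 ± 0.28 over both (adjusted p = 0.132, edgeR).

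Myog codes for myogenin, a factor that raises receptor subunits in inactive fibres. Young females stood at 3.22, 2.05 and 4.82 CPM and old females at 8.37, 11.1 and 10.6 CPM, without overlap. Young males stood at 4.36, 2.98 and 2.75 CPM and old males at 4.15, 5.71 and 4.6 CPM, which overlap. Its log2 fold change was 1.57 ± 0.54 in females (adjusted p = 0.0842, edgeR) and 0.52 ± 0.54 in males (adjusted p = 0.643, edgeR). The difference between the sexes was itself tested and did not pass, at 1.05 ± 0.76 (95% interval -0.56 to 2.67; adjusted p = 0.467, edgeR). In that test of the sexes 0.226% of all genes and none of the 10 passed, none of the 10 had an unadjusted p under 0.05 against 20.1% of all genes, and the smallest adjusted p was that of Ncam1, 0.446 at 0.57 ± 0.40.

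Ncam1 codes for a cell adhesion molecule that in innervated fibres is concentrated at the junction. It ranged from 3.65 to 7.81 CPM in young females and from 6.35 to 8.59 CPM in old females. In males it ranged from 6.31 to 7.45 CPM in young and from 4.52 to 8.46 CPM in old mice. The ages overlapped in each sex, and the log2 fold change over both was 0.11 ± 0.20 (95% interval -0.32 to 0.53; adjusted p = 0.777, edgeR).

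Gadd45a, a stress-response gene whose product drives gene changes of atrophy in denervated mouse muscle, rose. Young females stood at 52.1, 41.7 and 43.7 CPM and old females at 79.4, 168 and 122 CPM. In males the young stood at 42.7, 44.5 and 32.2 CPM and the old at 82.3, 116 and 106 CPM. No old library overlapped a young one, and old female 2 was the highest among them. Its log2 fold change was 1.42 ± 0.36 in females (adjusted p = 0.0354, edgeR), 1.35 ± 0.36 in males (adjusted p = 0.0987, edgeR) and 1.39 ± 0.26 over both (95% interval 0.84 to 1.93; adjusted p = 0.0203, edgeR). Without old female 3 the values were 1.44 ± 0.42 in females (adjusted p = 0.122, edgeR) and 1.40 ± 0.28 over both (adjusted p = 0.0329, edgeR).

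Runx1, which codes for a transcription factor that is induced in denervated fibres and limits their wasting in mice, had the smallest p of the 10. Young females stood at 4.65, 6.21 and 2.94 CPM and old females at 6.33, 19.4 and 22.3 CPM. Young males stood at 3.48, 3.51 and 3.61 CPM and old males at 9.55, 11.7 and 17.3 CPM. The males were far apart, while old female 1 was just above the highest young female. The log2 fold change was 1.79 ± 0.44 in females (adjusted p = 0.0317, edgeR), 1.86 ± 0.45 in males (adjusted p = 0.0904, edgeR) and 1.83 ± 0.32 over both (95% interval 1.15 to 2.50; adjusted p = 0.0148, edgeR). Without old female 3 it was 1.48 ± 0.47 in females (adjusted p = 0.154, edgeR) and 1.68 ± 0.32 over both (adjusted p = 0.0285, edgeR).

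RUNX1 is also a factor of blood cells, so the leukocyte markers are set beside it. The 13 markers summed to 31.0 to 62.7 CPM in young females, to 98.4 to 1130 CPM in old females, to 39.6 to 79.8 CPM in young males and to 57.1 to 90.0 CPM in old males. Of the 11 markers tested, all 11 rose in old females, where 4.5% of all genes rose. Over both sexes 6 rose, where 1.98% of all genes did, and none passed in males, where 0% of all genes did. With old female 3 left out, far fewer of all genes passed in females. None of the 11 then passed there, at a median log2 fold change of 1.53, and 4 rose over both sexes, at a median of 1.06. Old female 2 held 19.4 CPM of Runx1 with a leukocyte sum of 98.4 CPM, whereas old female 3 held 22.3 CPM with a sum of 1130 CPM. Old female 1 held 6.33 CPM with a sum of 121 CPM. The part of leukocytes in the Runx1 difference was not tested. In whole tissue, fewer cells of a type and less RNA per cell cannot be told apart, for these and for the other genes.

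**Figure D3:**
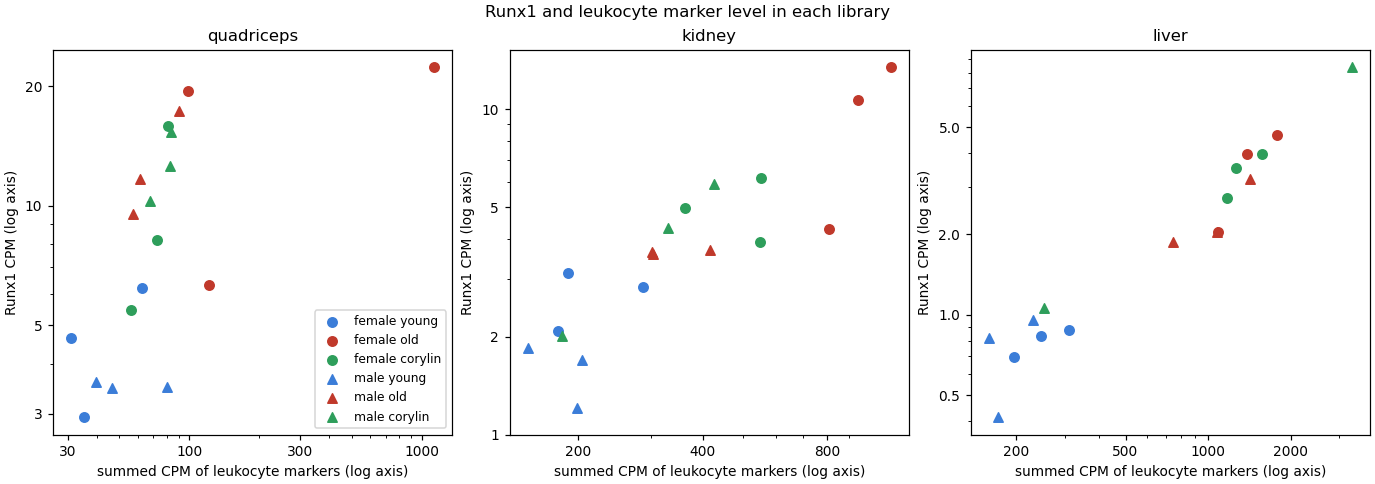
Runx1 CPM against the summed CPM of 13 leukocyte and macrophage markers in each library of quadriceps, kidney and liver (log axes with different ranges). In quadriceps the old female library at 1130 CPM of markers and the one at 98.4 CPM hold 22.3 and 19.4 CPM of Runx1. In kidney, old female 2 holds 4.28 CPM of Runx1 with 806 CPM of markers and corylin female 1 holds 6.16 CPM with 552 CPM. The liver libraries of corylin males hold 1.06 and 8.38 CPM of Runx1 with 253 and 3360 CPM of markers. These libraries are examples, and the relation was not tested.

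Counted within each sex, the calls were fewer than over both. In females 3 of the 10 genes rose (Runx1, Gadd45a and Chrnb1) and none fell, where 4.5% of all genes rose and 2.17% fell. In males none of the 10 and 0% of the 14173 genes passed in edgeR, although 5 of the 10 genes and 2597 of all genes (18.3%) had an unadjusted p under 0.05, DESeq2's Wald test called Chrnb1, Gadd45a and Runx1 among 492 genes, and limma voom called none. With only the male groups of this comparison in the fit, 5 of the 10 passed (Chrnb1, Chrne, Gadd45a, Musk and Runx1) among 664 of 13259 genes, and with only the female groups none did, where 1 of 13619 genes passed. In females, 5 of the 10 genes were higher in every old than in every young library and none was lower in every one, where 9.48% of all genes were higher and 9.81% lower without overlap. In males, 5 were higher and 1, Chrne, was lower, where 15.4% and 16.4% of all genes did so. Of the 10 genes, 4 (Runx1, Chrng, Gadd45a and Chrnb1) were higher without overlap in both sexes, against 224 of 14173 genes (1.58%).

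Single libraries decided some of these calls. Without old female 3 none of the 10 and 81 of 14395 genes passed in females, against 945 of 14173 with all libraries. None of the 10 passed in females without any single young female either. Among the 6 female fits that left out 1 library, Gadd45a lost its call in 5, and Runx1 and Chrnb1 each in 4. Without old female 1, 2589 of 14465 genes passed, among them Chrnb1, Chrne, Chrng, Gadd45a, Musk and Runx1. Over both sexes, the same 4 genes passed without old female 3, among 263 of 14395 genes. Without old male 3 none of the 10 and 36 of 14532 genes passed, with adjusted p from 0.0512 for Runx1 to 0.0561 for Chrng and log2 fold changes of 1.69 and 2.46 (edgeR). Without young male 2, Chrnb1 alone of the 10 passed, among 41 of 14500 genes. With the library letter as a term in the model, Gadd45a and Runx1 passed over both sexes, at adjusted p of 0.037 and 0.0471 (edgeR), and Chrnb1 and Chrng stood at 0.0553 and 0.0599. No young library has the letter R, so that letter effects could be estimated only among mice of 130 weeks. In the authors' deposited table, 5 of the 10 genes had an adjusted p under 0.05 in old against young females (Chrnb1, Chrng, Gadd45a, Myog and Runx1) and 3 in males (Chrnb1, Gadd45a and Runx1). Of all genes with an adjusted p in the authors' deposited table, 10.3% were under 0.05 in females and 3.58% in males.

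**Figure D4:**
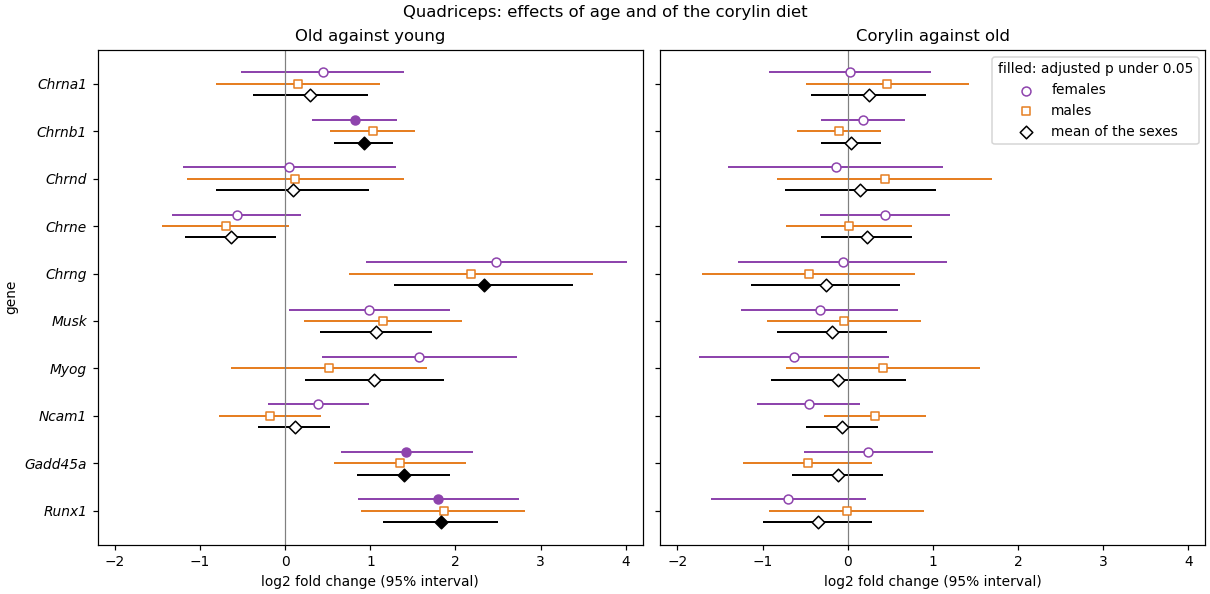
Log2 fold changes of the 10 genes with 95% intervals in quadriceps, old against young (left) and corylin against old (right), in females, males and over the mean of the sexes. Filled symbols have an adjusted p under 0.05 (edgeR, over 14173 genes); they occur on the left only, for Runx1, Chrnb1, Gadd45a and Chrng. Both panels use the old libraries.

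Corylin was compared with old muscle of the same age. The comparison shares its old libraries with the age comparison, so the values are set side by side and no relation between them was computed. None of the 10 genes and 0% of all genes passed in females, in males, over both sexes or in the test of the difference between the sexes in edgeR. None of the 10 had an unadjusted p under 0.05 in any of these comparisons, whereas 17.4%, 9.74%, 7.98% and 19.7% of all genes did. DESeq2 called 441, 68, 3 and 592 genes of the 14064 it could test, and limma voom none.

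Runx1 stood at 8.21, 15.9 and 5.46 CPM in corylin females, against 6.33, 19.4 and 22.3 CPM in old females. The groups overlapped, and the log2 fold change was -0.70 ± 0.43 (95% interval -1.61 to 0.21; adjusted p = 0.412, edgeR). In corylin males it stood at 15.3, 10.3 and 12.6 CPM, inside the old male range of 9.55 to 17.3 CPM. Over both sexes the value was -0.35 ± 0.30 (95% interval -1.0 to 0.29; adjusted p = 0.756, edgeR). Leukocyte markers summed to 56.4 to 80.6 CPM in corylin females, against 98.4 to 1130 CPM in old females.

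Gadd45a stood at 228, 138 and 70.5 CPM in corylin females and at 104, 53.9 and 61.6 CPM in corylin males. Corylin female 1 was the highest of all 18 libraries, while corylin males 2 and 3 lay below every old male. In males the log2 fold change was -0.47 ± 0.36 (95% interval -1.23 to 0.29; adjusted p = 0.67, edgeR). Chrnb1 stood at 56.2, 70.3 and 55.6 CPM in corylin females and at 75.4, 51.6 and 50.4 CPM in corylin males, all above the highest young library at 34.2 CPM. Chrng gave 6, 17 and 9 reads in corylin females and 9, 14 and 4 reads in corylin males, 59 in all. Its log2 fold change was -0.46 ± 0.59 in males (95% interval -1.71 to 0.79; adjusted p = 0.815, edgeR) and -0.26 ± 0.41 over both sexes (95% interval -1.14 to 0.62; adjusted p = 0.878, edgeR).

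Single corylin mice held the highest levels of several of the remaining genes. Myog stood at 3.80, 12.3 and 3.38 CPM in corylin females and at 4.25, 2.74 and 12.4 CPM in corylin males, so 1 mouse of each sex held the 2 highest levels among the 18. In females the log2 fold change of Myog was -0.63 ± 0.52 (95% interval -1.74 to 0.48; adjusted p = 0.557, edgeR), and -1.47 without corylin female 2. Chrna1 was also highest in corylin mice, at 32.0 CPM in corylin female 2 and 31.5 CPM in corylin male 1, and its log2 fold change in males was 0.46 ± 0.45 (95% interval -0.49 to 1.42; adjusted p = 0.747, edgeR). Musk reached its highest level, 20.1 CPM, in corylin male 3, the library that also held 12.4 CPM of Myog. Corylin male 3 stood apart from the other corylin males in its fibre-type genes. It held 1260 CPM of the slow myosin gene Myh7 against 5.96 and 17.7 CPM, 8470 CPM of Myh2 against 1070 and 3010 CPM, and 29000 CPM of the fast myosin gene Myh4 against 79500 and 54500 CPM. The part of fibre type in these peaks was not tested. Chrnd ran from 0.801 to 7.14 CPM among the corylin females, the lowest and the highest of all 18 libraries.

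Chrne stood at 9.11, 13 and 11.1 CPM in corylin females, a log2 fold change of 0.44 ± 0.36 against old females (95% interval -0.32 to 1.2; adjusted p = 0.551, edgeR). Without old female 1 Chrne passed in this comparison, as did 1107 of 14465 genes, against none with all libraries. It was the only one of the 10 to pass in any quadriceps fit of corylin against old that left out a library. Ncam1 in corylin females ranged from 4.31 to 7.71 CPM, with a log2 fold change of -0.46 ± 0.28 (95% interval -1.06 to 0.14; adjusted p = 0.411, edgeR). The corylin effect on Ncam1 in females less that in males was -0.78 ± 0.40 (95% interval -1.63 to 0.06; adjusted p = 0.286, edgeR), and the same difference for Myog was -1.04 ± 0.74 (adjusted p = 0.455, edgeR). For Myog it was -1.88 without corylin female 2 and -0.16 without corylin male 3. Across the 10 genes the fitted values ran from -0.70 to 0.44 in females, from -0.47 to 0.46 in males and from -0.35 to 0.25 over both. The authors' deposited table likewise has none of the 10 under an adjusted p of 0.05 for corylin against old mice. The shares of all genes there were 3.14% in females and 0.495% in males. Against young mice the authors' deposited table has Chrnb1 and Gadd45a for corylin females, where 0.512% of all genes were under 0.05, and Chrnb1 and Runx1 for corylin males, where 0.841% were.

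Of the wider denervation response, 20 further genes were looked at and 19 were tested. Over both sexes 5 rose and none fell, where 1.98% of all genes rose and 1.62% fell. The median log2 fold change of the 19 was 0.80. Ankrd1, a stretch- and injury-induced repeat protein of the sarcomere, rose by 3.01 ± 0.46 (adjusted p = 0.0118, edgeR). Sln, which codes for sarcolipin, an inhibitor of the calcium pump, rose by 3.05 ± 0.78 (adjusted p = 0.045, edgeR). It stood at 4.32 ± 1.18 in males (adjusted p = 0.101, edgeR) and 1.77 ± 1.03 in females (adjusted p = 0.289, edgeR). Young female 1, at 12.7 CPM of Sln, lay above old female 2, at 6.97 CPM. Gdf5, a BMP-family ligand that is induced in denervated mouse muscle, rose by 2.97 ± 0.71 (adjusted p = 0.0387, edgeR). This change rests on few reads: 10, 5 and 0 in young females and 1, 4 and 1 in young males. Old females gave 26, 36 and 79 reads of Gdf5 and old males 9, 22 and 5. The receptor gene Tnfrsf12a (Fn14), which mediates denervation atrophy in mice, rose by 1.59 ± 0.34 (adjusted p = 0.0303, edgeR), and Ampd3, an AMP deaminase, by 1.14 ± 0.23 (adjusted p = 0.0283, edgeR). In females 4 rose and none fell, where 4.5% of all genes rose and 2.17% fell. Among these 4 were Ankrd1, Tnfrsf12a and Gdf5, and the median over the 19 was 0.23. Leaving out old female 3, 1 of the 19 passed in females (Ankrd1, at 2.82 ± 0.51, adjusted p = 0.0406, edgeR) and 3 over both sexes, Ankrd1 and Ampd3 among them. Gdf5, Tnfrsf12a and Sln then stood at adjusted p of 0.0625, 0.0575 and 0.105 over both (edgeR). In males none of the 19 and 0% of all genes passed, at a median of 0.91 over the 19. The ubiquitin ligases of atrophy did not pass over both sexes: Trim63 stood at 0.80 ± 0.41 (adjusted p = 0.233, edgeR) and Fbxo32 at 0.56 ± 0.24 (adjusted p = 0.165, edgeR). None of the 19 passed for corylin against old muscle in either sex, where the medians were -0.42 in females and 0.18 in males.

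The agrin pathway and the postsynaptic scaffold gave no call. Of 22 genes, 20 were tested, and none passed for age or for corylin in either sex or over both. Over both sexes the median log2 fold change with age was -0.15. Agrn, the gene of the organizer itself, stood at 0.04 ± 0.13 (adjusted p = 0.88, edgeR) and Rapsn, whose product anchors the receptor, at 0.06 ± 0.10 (adjusted p = 0.752, edgeR). Lrp4, the agrin receptor gene, stood at -0.30 ± 0.26 (adjusted p = 0.49, edgeR), and Dok7, the gene of the cytoplasmic activator of MuSK, at -0.24 ± 0.15 (adjusted p = 0.335, edgeR). The smallest p values of the list were those of the neuregulin receptor gene Erbb4 in old against young females, at -1.83 ± 0.68 (adjusted p = 0.105, edgeR), and of Utrn, the gene of the dystrophin relative utrophin, in corylin against old males, at 0.57 ± 0.21 (adjusted p = 0.432, edgeR).

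**Figure D5:**
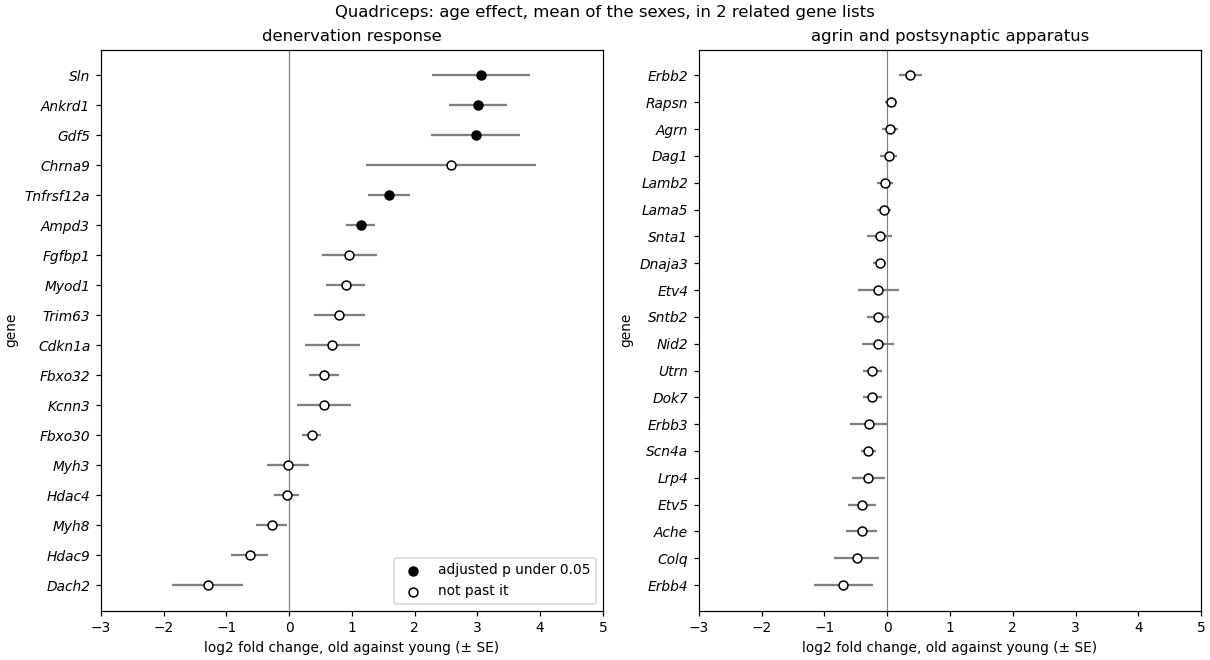
Log2 fold change with age, mean of the sexes, of 18 of the denervation-response genes (left) and 20 agrin-pathway and postsynaptic genes (right) in quadriceps, with bars of 1 SE. Filled symbols have an adjusted p under 0.05 (edgeR); there are 5 on the left and none on the right.

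Other cells of the junction and of muscle are set beside these values. Of 14 Schwann cell markers tested, 3 fell over both sexes and none rose, where 1.62% of all genes fell and 1.98% rose. Among the 3 were Prx, which fell by 1.43 on the log2 scale, and S100b, which fell by 1.75. In females these 2 stood at -0.71 and -0.77 (adjusted p = 0.243 and 0.373, edgeR), and in males at -2.14 and -2.74 (adjusted p = 0.0742 and 0.0808, edgeR). The median log2 fold change of the 14 was 0.34 in females, -1.25 in males and -0.45 over both. Without old female 3, Prx alone of the Schwann cell markers passed. Their 15-gene sum was 77.8 to 111 CPM in young males and 30.9 to 44.6 CPM in old males, without overlap, and 64.0 to 121 CPM in young and 75.0 to 119 CPM in old females. Of 11 satellite cell and regeneration genes tested, Pax7 and Chodl fell over both sexes, by 1.24 and 0.92 on the log2 scale, and none rose. The list's median was 0.02, its sum was 3750 to 4320 CPM in young and 4420 to 4970 CPM in old males, and without old female 3 none of it passed. The 10 myofibre genes and 6 endothelial genes gave no call. Besides the leukocyte markers, the fibroblast gene Pi16 rose in old females, by 1.37 ± 0.36 (adjusted p = 0.0382, edgeR), and stood at -1.29 ± 0.37 in males (adjusted p = 0.118, edgeR). Leaving out old female 3, it stood at 0.98 ± 0.35 in females (adjusted p = 0.2, edgeR). Fibroblast markers summed to 899 to 1150 CPM in young and 513 to 671 CPM in old males. The adipocyte gene Lep fell in old females, with 55.4 CPM in young female 2 against 0.417 and 1.47 CPM in the other young females, and did not pass with old female 3 left out (adjusted p = 0.227, edgeR). Adipocyte markers together summed to 87.8 to 145 CPM in young and 199 to 281 CPM in old males, without overlap, and to 90.2 to 1240 CPM in young and 171 to 333 CPM in old females. The part of these cell types in the changes of the receptor genes was not tested.

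Closeness of pattern was measured as the root mean square difference between log2 CPM profiles, each centred on its mean over the 18 quadriceps libraries. Nearest to Runx1 were Sap30 (0.49) and Tiam2 (0.50), where the spread of Runx1 itself was 0.90. Nearest to Chrnb1 were Pdlim3 (0.22) and Lrp11 (0.24) with an own spread of 0.50. Nearest to Gadd45a were Nfkb2 (0.43) and Eda2r (0.45) with an own spread of 0.77, and nearest to Chrng were Vash2 (0.52) and Tmem154 (0.59) with an own spread of 0.91. Among the 10 genes themselves, Runx1 lay nearest to Chrnb1 (0.56) and Gadd45a (0.60) and farthest from Chrne (1.36).

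In kidney and liver the genes separated into those of muscle and those of wider use. Myog and Chrng gave no read in any kidney or liver library, at 8.69 to 23.19 Mreads per library in kidney and 9.03 to 16.61 Mreads in liver. Chrna1, Chrnd and Musk gave no read in liver and at most 4 reads in a kidney library. The low-count filter kept 5 of the 10 in kidney (Chrnb1, Chrne, Gadd45a, Ncam1 and Runx1) and 4 in liver (Chrnb1, Gadd45a, Ncam1 and Runx1). The values below therefore say how much of the quadriceps pattern of these genes also appears where no neuromuscular junction exists.

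In kidney Runx1 stood at 2.84, 3.15 and 2.08 CPM in young females and at 10.7, 4.28 and 13.5 CPM in old females. Young males stood at 1.70, 1.21 and 1.84 CPM and old males at 3.64, 3.60 and 3.70 CPM. No old library overlapped the young ones of its sex. In log2 terms the change was 1.82 ± 0.38 in females (95% interval 1.02 to 2.63; adjusted p = 0.0051, edgeR) and 1.21 ± 0.40 in males (95% interval 0.36 to 2.06; adjusted p = 0.246, edgeR). Leukocyte markers summed to 179 to 287 CPM in young and 806 to 1140 CPM in old females, and to 151 to 204 CPM in young and 302 to 417 CPM in old males. Their part in the difference was not tested.

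Chrnb1 in kidney stood at 8.97, 12.1 and 7.51 CPM in young females and at 24.4, 13.7 and 13.6 CPM in old females, without overlap. It rose by 0.85 ± 0.25 on the log2 scale (95% interval 0.33 to 1.37; adjusted p = 0.035, edgeR), and the value in males was 0.50 ± 0.26 (adjusted p = 0.503, edgeR). Without old female 1, and without young female 1 or 3, Chrnb1 did not pass. Gadd45a in old female kidney, at 0.73 ± 0.28 (adjusted p = 0.109, edgeR), did not pass. Ncam1 stood at 1.16 ± 0.42 in females (adjusted p = 0.0901, edgeR) and 0.47 ± 0.44 in males (adjusted p = 0.755, edgeR). Chrne, at no more than 1.23 CPM in young or old kidney, stood at -0.92 ± 0.59 in females (adjusted p = 0.366, edgeR). In males Chrne stood at -0.90 ± 0.46 (adjusted p = 0.503, edgeR). Neither gene passed, and the direction of Chrne was that seen in quadriceps. Thus 2 of the 5 genes tested rose in old female kidney, where 10.8% of all genes passed, and none of the 5 passed in males, where 0.111% of all genes did; 1 of the 5 had an unadjusted p under 0.05 there, as did 10.9% of all genes.

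In liver Runx1 stood at 0.878, 0.833 and 0.693 CPM in young females and at 2.03, 3.97 and 4.69 CPM in old females. Young males stood at 0.958, 0.819 and 0.415 CPM and old males at 1.87, 2.04 and 3.22 CPM. The ages did not overlap in either sex. The log2 fold change was 2.14 ± 0.59 in females (95% interval 0.88 to 3.39; adjusted p = 0.0363, edgeR) and 1.71 ± 0.62 in males (95% interval 0.39 to 3.03; adjusted p = 0.155, edgeR). Runx1 was the only one of the 4 genes to pass in old female liver, where 9.27% of all genes passed, and none of the 4 passed in males, where 0.211% did. In females the call held without old female 1 and was lost without each of the other 5 libraries. Leukocyte markers summed to 196 to 312 CPM in young and 1090 to 1790 CPM in old females, and to 159 to 229 CPM in young and 747 to 1420 CPM in old males. Runx1 was thus higher in every old library than in every young library of the same sex in all 3 tissues, as were 22 of the 12565 genes tested in each (0.175%). Taken alone, 3.99% of all genes did so in kidney and 8.84% in liver. By the library names, the young and old libraries of the 3 tissues come from the same mice, so the tissues are not independent repeats.

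Corylin against old mice gave no call for these genes in kidney or liver. In female kidney, where 0.0582% of all genes passed, Runx1 stood at 6.16, 4.96 and 3.92 CPM with corylin, a log2 fold change of -0.92 ± 0.37 (95% interval -1.70 to -0.15; adjusted p = 0.33, edgeR). Leukocyte markers summed to 363 to 552 CPM there, against 806 to 1140 CPM in old females. Gadd45a in the same kidneys stood at 35.6, 27.7 and 31.7 CPM, a log2 fold change of -0.68 ± 0.28 (95% interval -1.26 to -0.09; adjusted p = 0.346, edgeR). Chrne went the other way there, at 3 to 5 reads in old and 3 to 9 reads in corylin libraries, with a log2 fold change of 1.33 ± 0.59 (adjusted p = 0.384, edgeR). These 3 of the 5 genes had an unadjusted p under 0.05, as did 12% of all genes. None of the 5 did in male kidney, where 7.25% of all genes did and 0.0699% passed. In female liver none of the 4 had an unadjusted p under 0.05, where 15.8% of all genes did and 0.152% passed. In male liver 0.0594% of all genes passed, and Gadd45a stood at 4.68 and 3.60 CPM with corylin against 1.18, 1.83 and 2.34 CPM in old males, a log2 fold change of 1.21 ± 0.52 (95% interval 0.10 to 2.33; adjusted p = 0.433, edgeR). That corylin group has 2 libraries here. Its Runx1 values, 1.06 and 8.38 CPM, came with leukocyte sums of 253 and 3360 CPM.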

How the data were processed

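Polyadenylated RNA was prepared with a strand-specific kit and sequenced as read pairs of 150 bases, per the labels' protocols. The submitters' processing notes name fastp 0.20.0, FastQC 0.11.9, HISAT2 2.1.0, featureCounts 2.0.1 and the builds GRCm38 and mm10; the strand setting is not given in the sources used here. Each tissue has 1 deposited table with unnormalized read counts per gene, TPM values that the authors computed, and their own comparisons as log2 ratios with p-values, for which the test is not given in the sources used here. Counts were used for all tests, TPM as deposited to order genes by level, and of the authors' comparisons only which adjusted p-values were under 0.05. No column lacked a sample (0). Of 54 samples, 53 were analysed; 1 male corylin liver was not analysed here.

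For each tissue 1 model over all 6 groups was fitted with edgeR 4.0.16 in R 4.3.3 (robust quasi-likelihood F test, TMM factors, filterByExpr), with Benjamini-Hochberg adjustment over all genes tested and a threshold of 0.05. CPM use TMM-scaled library sizes. Fold changes over both sexes are the mean of the effects in females and males. Mice are separate animals within a tissue. The p-values rest on the spread between mice of the same group, estimated jointly over all 6 groups and not from the compared groups alone. Alternatives were DESeq2 1.42.0, limma 3.58.1 (voom), DESeq2's size factors in edgeR, other low-count filters, only the groups compared, the library letter or replicate number as a term, and leaving out each library. The fit was tested on simulated data with changes placed in old females, 50 genes for each true fold. It called 52% of genes at a true fold of 2 and 44% at 0.5. At true folds of 4 and 0.25 it called 84% and 70%. A gene that did not pass may therefore still have changed. No replicate pair was alike enough to be a repeated library.

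The genes and lists were chosen with earlier results of these data known. All 10 genes are named. From each related list up to 6 genes with the smallest adjusted p among those that passed were to be named, from marker lists up to 3, and 2 by smallest p where fewer than 2 passed; some list members are not reported here; Trim63, Fbxo32, Agrn, Rapsn, Lrp4 and Dok7 were added after their values were seen, for their roles. The likeness measure was computed for the 4 genes with the smallest p, leaving out predicted genes. Genes overlapping another on the opposite strand are Chrne, Ncam1, Gadd45a and Runx1; without a known strand setting their reads cannot be told apart from those of the partner. In quadriceps, the partners had at most 1, 0, 52 and 3 reads per library. Annotation was GENCODE M21.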

Additional observations from a re-analysis of the deposited data

How the results depend on the processing

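Of the recomputed fold changes 764 stayed on their side of the threshold, 55 lost a call, 23 gained one and 7 changed sign. Counts of the 10 genes called moved as follows, and the cause was not tested. In old against young females (3 called), DESeq2 called 5, and limma voom, no low-count filter, the library letter in the model and only the groups compared each called 0; leaving out a library gave 0 to 6. In males (0 called), DESeq2 called 3 and only the groups compared 5. Over both sexes (4 called), the letter and only the groups compared each gave 2, and leaving out a library 0 to 6. Corylin against old females ranged from 0 to 1. Young females against young males gave 1 with only the groups compared. In kidney (2 called, all in old females) only the groups compared gave 1, Runx1 in males, and leaving out a library 1 to 3. In liver (1 called), limma voom gave 0, only the groups compared 2, and leaving out a library 0 to 2; the added call was Runx1 for corylin in males, where 1 corylin library remained and was assumed to vary like the other groups. Leaving out libraries moved Chrnd from -0.38 to 0.44 in females, from -0.06 to 0.32 in males and from -0.13 to 0.28 over both, and Ncam1 over both from -0.05 to 0.23. No other fold change in this recomputed set took the opposite sign. The set does not hold every gene in every comparison, and the corylin effects of several genes are not in it.

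Same-numbered quadriceps libraries had deviations correlated from -0.40 to 0.35 (median 0.07), with 18 of 45 over 0.1. Old and young females gave 0.34, -0.25 and -0.05 and old and young males 0.11, -0.05 and 0.13, so pairing is not shown for the age comparisons. Young females with young males were over 0.1 for all 3 numbers (0.33, 0.20 and 0.35), where the block left 0 of the 10 called and moved the count of all genes from 170 to 198. Old females with old males also were (0.25, 0.11 and 0.16). With the replicate number as a block, 2 of the 10 passed in females (Gadd45a and Runx1), 0 in males and 5 over both sexes (Musk added), and none for corylin. The count of all genes with age over both sexes went from 509 to 833. It was 1374 with DESeq2, 289 with voom, 309 unfiltered, 57 with the letter and 33 with only the groups compared; in females it was 945, against 1597, 296, 402, 113 and 1. Depth limits Chrng, which has at most 19 reads in an old library.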
